A study of Mus musculus with 6 samples.

Results

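The genes described here encode the subunits, activators and assembly factors of the proteasome. They are the protein-coding genes of chromosomes 1 to 19 (GENCODE release M21, GRCm38) whose symbol begins with Psm, followed by a letter from a to g and a digit. This rule found 49 of 20722 protein-coding genes. By name, 7 encode the alpha ring of the 20S core, 7 its beta ring, 5 tissue-specific core subunits, 6 the ATPases and 11 the non-ATPase subunits of the 19S cap, 5 activators, 1 the regulator Psmf1 and 6 assembly chaperones. The remaining gene, Psmc3ip, encodes a meiotic recombination factor named for its binding to Psmc3 and is no proteasome subunit.

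The study used ChIP-seq to map binding of Tex10 and the histone mark H3K4me3 in day 2 PGCLCs of the mouse. PGCLCs are primordial germ cell-like cells, cultured cells that resemble the precursors of eggs and sperm. There were 2 HA-Tex10, 2 H3K4me3 and 2 input DNA samples, all untreated and labelled as strain 129Sv/J. Per the design text, Tex10 in these cells carries an HA tag at its C-terminus and was precipitated with an antibody against the tag. No sample from untagged cells was used here, and neither were files of the input samples. The deposited lists hold 1 set of intervals per antibody (4331 for HA-Tex10 and 29072 for H3K4me3) without a score, so nothing below has a replicate error and no test compares samples. A gene was counted as having an interval when the interval came within 1 kb of a transcription start site (TSS) of one of its protein-coding transcripts. Among markers of the labelled cell type, 7 of 9 germ cell-like and pluripotency genes had H3K4me3 at a TSS and Dppa3 and Nanos3 did not. All 7 markers of other embryonic cell types (such as T, Eomes and Sox17) also had it, and 0 of 5 genes of unrelated adult tissues did.

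The proteasome degrades proteins tagged with ubiquitin. Its 20S core is a barrel of alpha rings, which gate the entry, and beta rings, which cut the substrate. The 19S cap binds ubiquitin, unfolds the substrate with its ring of ATPases and feeds it into the core. Trimethylation of histone H3 at lysine 4 marks the starts of active and poised genes. Tex10 is a nuclear protein known as part of a complex with Pelp1 and Wdr18 in ribosome assembly and as a factor bound at enhancers in pluripotent cells.

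HA-Tex10 intervals lay at 9 of the 49 proteasome genes (18.4%, 95% Wilson interval 9.98 to 31.4%), against 9.13% of all protein-coding genes. H3K4me3 lay at 46 of the 49 (93.9%, 83.5 to 97.9%), against 62.6% of all protein-coding genes. All 9 genes with HA-Tex10 also had H3K4me3, as did 1854 of all 1891 protein-coding genes with HA-Tex10. Among genes with H3K4me3, the HA-Tex10 share was 9 of 46 (19.6%, 10.7 to 33.2%) against 14.3% of all such genes, a value inside the Wilson interval of the proteasome genes. Read against genes that carry the mark, the proteasome genes were thus near the background. The Wilson intervals cover the counting of genes only and treat genes as independent.

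The 9 genes were Psma3 and Psmb2 in the 20S core, the tissue-specific subunit Psmb9, Psmd3, Psmd7 and Psmd8 among the non-ATPase subunits of the cap, and the assembly chaperones Psmd5, Psmd9 and Psmg1. Each had 1 interval, and the 9 intervals lay on 9 different chromosomes. None lay mostly in repeated sequence: the highest share of 32-base words found more than once in the genome was 1.07%, at Psmd7, and the other 8 intervals had 0%. For comparison, 7.34% of the 1771 HA-Tex10 intervals at any coding TSS were mostly repeated.

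Sequences are shown first for some of the HA-Tex10 intervals, without exons of coding transcripts, since they are the DNA under the HA-Tex10 calls. The set is not complete. The intervals of Psmb2, Psmd3 and Psmd7 also have bases outside exons of the gene but are not shown, and these genes had no promoter sequence available. The Psmb9 interval, which lies entirely in exons, is not shown either. All sequences shown are on GRCm38, 5′ to 3′ in the direction of transcription, with the promoter sequences from RefSeq (GRCm38.p6). Capitals mark matches, on either strand, to the antioxidant response element (TGANNNNGC), the SP box (GGGCGG) or the E-box (CACGTG). The antioxidant response element is the site read by Nfe2l1, the transcription factor that raises proteasome gene expression when proteasome activity falls. The Psma3 sequence is the whole HA-Tex10 interval, chr12:70974862-70975080 on the plus strand, which lies in an intron. The Psmd5 (chr2:34870966-34871212, minus strand) and Psmg1 (chr16:95990961-95991210, minus strand) sequences lie wholly inside their intervals. Of the Psmd8 sequence (chr7:29180702-29180923, minus strand) the last 53 bases, and of the Psmd9 sequence (chr5:123227940-123228189, plus strand) the last 81, lie inside. Psmd12 (chr11:107479278-107479483, plus strand), which encodes a scaffold subunit of the cap, is shown as a promoter with the same kind of match and no HA-Tex10.
Psma3: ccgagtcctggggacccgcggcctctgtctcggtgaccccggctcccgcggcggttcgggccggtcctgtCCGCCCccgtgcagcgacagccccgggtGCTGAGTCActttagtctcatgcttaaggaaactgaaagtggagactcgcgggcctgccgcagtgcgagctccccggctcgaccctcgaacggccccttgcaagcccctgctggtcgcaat
Psmd5: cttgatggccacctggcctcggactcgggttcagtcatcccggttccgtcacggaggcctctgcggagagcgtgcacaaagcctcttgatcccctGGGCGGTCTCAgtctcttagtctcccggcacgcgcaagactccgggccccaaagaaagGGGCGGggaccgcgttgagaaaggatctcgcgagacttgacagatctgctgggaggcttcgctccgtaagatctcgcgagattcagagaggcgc
Psmg1: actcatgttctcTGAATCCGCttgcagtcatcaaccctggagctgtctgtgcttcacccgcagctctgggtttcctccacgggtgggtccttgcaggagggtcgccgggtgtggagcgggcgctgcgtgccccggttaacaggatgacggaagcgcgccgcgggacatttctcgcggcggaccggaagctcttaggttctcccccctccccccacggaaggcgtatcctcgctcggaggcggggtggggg
Psmd8: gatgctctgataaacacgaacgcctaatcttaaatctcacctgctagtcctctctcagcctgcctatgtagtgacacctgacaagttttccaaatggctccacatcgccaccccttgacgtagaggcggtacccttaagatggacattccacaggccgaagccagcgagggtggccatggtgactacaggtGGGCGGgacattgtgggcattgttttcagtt
Psmd9: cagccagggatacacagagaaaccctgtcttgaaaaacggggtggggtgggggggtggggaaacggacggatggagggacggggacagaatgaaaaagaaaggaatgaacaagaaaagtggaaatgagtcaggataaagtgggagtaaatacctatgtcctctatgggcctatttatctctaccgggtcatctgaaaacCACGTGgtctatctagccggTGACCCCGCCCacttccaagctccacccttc
Psmd12: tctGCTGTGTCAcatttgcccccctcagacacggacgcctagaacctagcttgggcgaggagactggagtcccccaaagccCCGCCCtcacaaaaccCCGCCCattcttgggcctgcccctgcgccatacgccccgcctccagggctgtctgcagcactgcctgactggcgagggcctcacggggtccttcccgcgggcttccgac
The Psma3 interval holds the match GCTGAGTCA, whose reverse strand matches the antioxidant response element. In Psmd5 and Psmd9 this match overlaps an SP box, so a run of capitals there holds both.

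In the 20S core, the intervals lay downstream of the start. At Psma3, an alpha ring subunit, the interval was 219 bp wide and began 179 bp downstream of the nearest TSS (70974683), with 0 bp in exons. At Psmb2, a non-catalytic beta ring subunit, it was 249 bp wide (chr4:126677681-126677929), began 51 bp downstream of the TSS and had 165 bp in exons. Both lay wholly inside the H3K4me3 interval. The other 12 constitutive core genes had no HA-Tex10, giving 2 of 14 (14.3%, 4.01 to 39.9%).

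Psmb9 encodes a catalytic beta subunit of the immunoproteasome, the form of the core that is induced by interferon and makes peptides for presentation to T cells. Its interval was 397 bp wide (chr17:34187332-34187728), began 36 bp downstream of the outermost TSS and lay entirely in exons of the gene. The promoter is shared with Tap1, the peptide transporter of the same pathway, which is transcribed in the opposite direction, so the interval cannot be assigned to either gene. It was the 1 HA-Tex10 interval among the 11 proteasome genes that have another coding TSS within 1 kb (9.09%). Of all protein-coding genes with such a neighbour 22.2% had HA-Tex10. Of the 38 proteasome genes without such a neighbour, 8 had HA-Tex10 (21.1%), against 7.17% of all genes of that kind. Among genes with H3K4me3 the shares were 9.09% (1.62 to 37.7%) against 24.1% with a neighbour and 22.9% (12.1 to 39%) against 12% without. The first interval holds its background and the second begins just above it, and neither difference was tested.

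In the 19S cap, the intervals held the start itself. At Psmd3, a scaffold subunit of the lid, the interval was 254 bp wide (chr11:98682452-98682705) and ran from -102 to 151 bp of the TSS, a negative value being upstream. At Psmd7, the partner of the deubiquitinating subunit Psmd14, it was 500 bp wide (chr8:107588203-107588702) and ran from -238 to 261 bp. At Psmd8, another lid subunit, it was 299 bp wide (chr7:29180456-29180754) and held all 4 annotated coding TSS of the gene. None of the 6 ATPase genes had HA-Tex10, which allows up to 50% by 3 counts of the total, or 39% by Wilson interval. The 3 of 11 non-ATPase genes (27.3%, 9.75 to 56.6%) thus cannot be set apart from them.

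Assembly chaperones are proteins that help to build the proteasome and then leave it. Psmg1 forms a dimer with Psmg2 that guides the alpha ring, and Psmd5 and Psmd9 each hold ATPases of the cap during assembly. The Psmg1 interval was 501 bp wide (chr16:95990765-95991265), the widest of the 9, and held both TSS. The Psmd5 interval was 412 bp wide (chr2:34870894-34871305) and was centred at -137.5 bp. The Psmd9 interval was 145 bp wide (chr5:123228109-123228253), the narrowest of the 9, and was centred at -9 bp. Of the 6 chaperone genes, 3 had HA-Tex10 (50%, 18.8 to 81.2%), and Psmg2, Psmg3 and Psmg4 did not. All 6 had H3K4me3, and 14.3% of all genes with that mark had HA-Tex10. The chaperones were 1 of 8 small groups of subunits examined, and their share was not tested against the others. The activator genes had 0 of 5, which allows up to 60% by 3 counts of the total, or 43.4% by Wilson interval. Psmf1 had none.

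**Figure D1:**
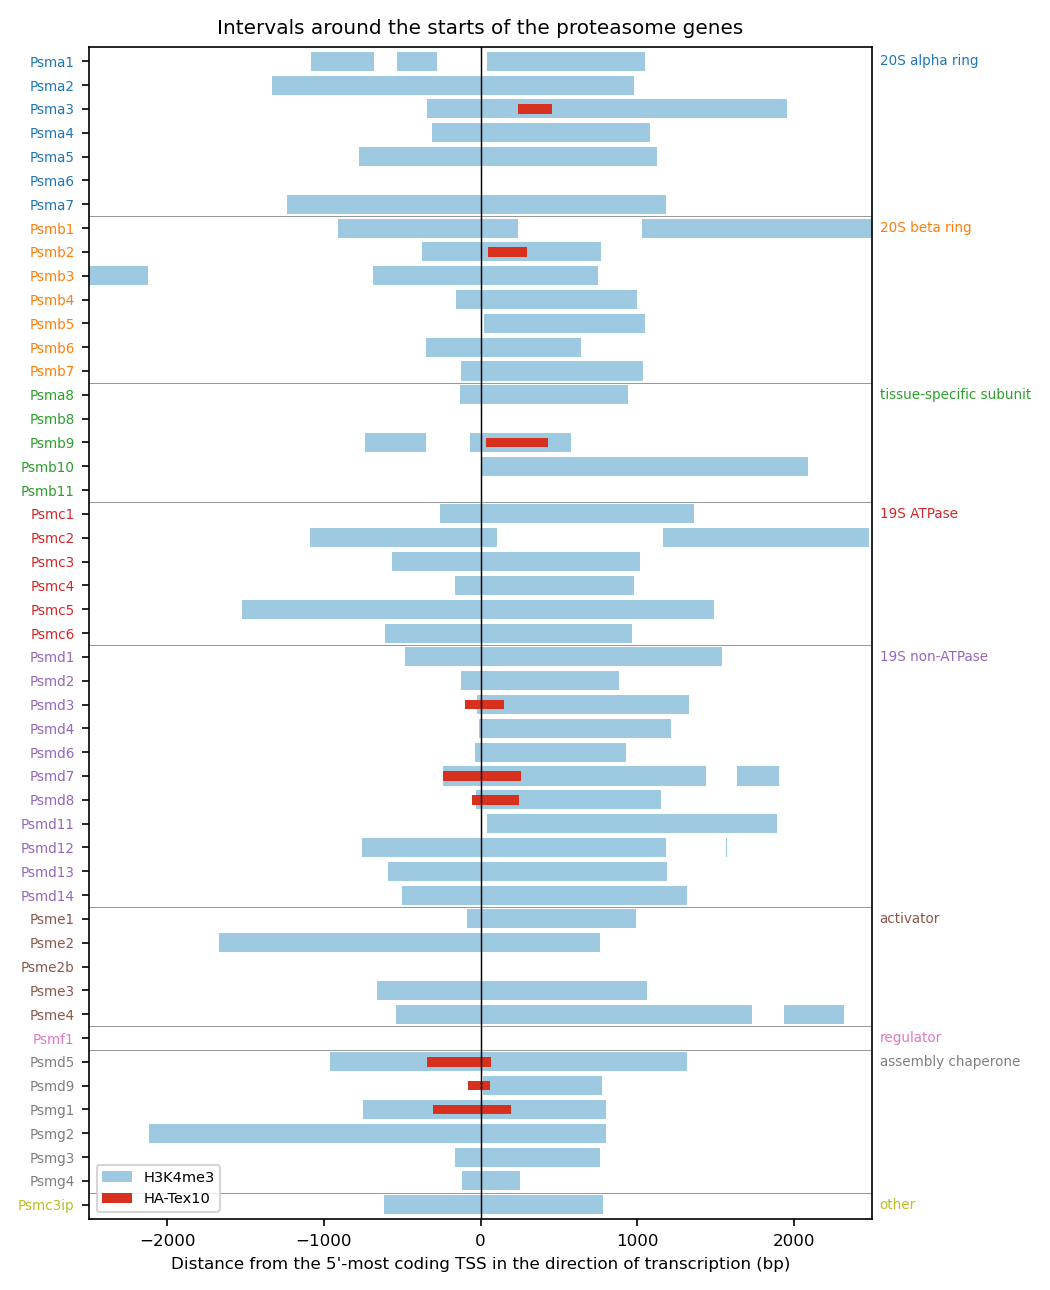
Each row is a gene, and the x axis gives the distance in bp from its 5'-most coding TSS in the direction of transcription. Pale bars are H3K4me3 intervals and narrow red bars HA-Tex10 intervals. The 9 red bars lie within 500 bp of the start, and the H3K4me3 of Psma6 and Psmf1, at a TSS farther downstream, lies outside the plotted range.

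The 9 proteasome intervals were compared with all 1771 HA-Tex10 intervals at coding TSS. Their median width was 299 bp (145 to 501 bp), against 234 bp (interquartile range 157.5 to 332 bp) for all. A coding TSS lay inside 7 of the 9, with that of Tap1 standing for Psmb9, against 44.2% of all. The median distance of their centres from the nearest TSS was -9 bp against -14 bp. Every proteasome interval met H3K4me3, against 90.3% of all, and 6 of 9 lay wholly inside it, against 71.5%. The exceptions crossed the upstream edge of the mark: 68.5% of the Psmd3 interval, 92% of the Psmd8 interval and 31% of the Psmd9 interval lay in H3K4me3. Measured along the H3K4me3 interval from its upstream edge, HA-Tex10 centres ranged from -3.68% of its width at Psmd9 to 48% at Psmb2, with a median of 30.1%. Read in the direction of the proteasome gene, all 9 were thus nearer the upstream edge. The 1600 intervals at coding TSS that met H3K4me3 were read in the direction of the nearest TSS. Of these, 71.6% were nearer the upstream edge, and their median was 32.5%. At Psmb9 (46.6%) the nearest TSS is that of Tap1, in the opposite direction. Read that way, the centre there lies nearer the downstream edge.

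Of the 40 proteasome genes without HA-Tex10, none had such an interval within 5 kb of a TSS. The closest were Psmd13 at 8648 bp, Psmb8 at 9993 bp and Psmd12 at 10153 bp. The interval nearest to Psmb8 was that of Psmb9 and Tap1. The distances of the 9 genes with an interval were 0 to 179 bp, so no gene lay near the 1 kb limit, and windows of 500 bp, 2.5 kb and 5 kb gave the same 9 genes. No further HA-Tex10 interval lay anywhere in the body of a proteasome gene. The 37 genes with H3K4me3 and no HA-Tex10 had a median distance of 126763 bp, against 144180 bp for all such genes.

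**Figure D2:**
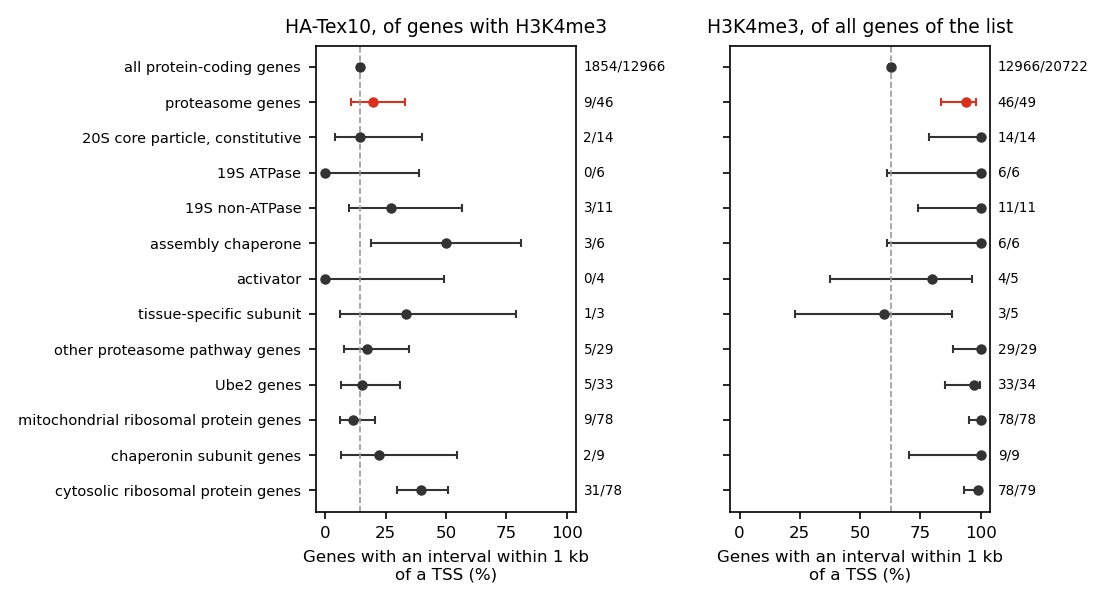
The left panel gives the percent of genes with H3K4me3 that had HA-Tex10, and the right panel the percent of genes of each list that had H3K4me3. Points are shares, bars are Wilson 95% intervals, fractions give the counts and dashed lines the share of all protein-coding genes. The bar of the proteasome genes (9/46) covers the background of 14.3%, and that of the cytosolic ribosomal protein genes (31/78) lies above it.

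Cytosolic ribosomal protein genes had HA-Tex10 at 31 of 78 genes with H3K4me3 (39.7%, 29.6 to 50.8%), and mitochondrial ribosomal protein genes at 9 of 78 (11.5%, 6.19 to 20.5%). Subunits of the chaperonin that folds actin and tubulin had it at 2 of 9. The proteasome share of 19.6% lay between those of the ribosomal lists, and the Wilson intervals of the proteasome genes and the cytosolic ribosomal protein genes overlap.

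Other genes of the pathway were read from a list with 29 genes found, mostly of factors that act beside the subunits, and from the 34 genes with a Ube2 symbol, mostly ubiquitin-conjugating enzymes. HA-Tex10 lay at 5 of the 29 (17.2%, 7.6 to 34.5%) and at 5 of the 34 (14.7%, 6.45 to 30.1%). Both shares were near the 14.3% of all genes with H3K4me3, which 62 of the 63 genes carried. The list also holds Adrm1 and Sem1, cap subunits whose symbols fall outside the rule, and neither had HA-Tex10. In the first list the genes were the ubiquitin genes Ubb and Rps27a, the shuttle protein Midn, the thioredoxin-like Txnl1 and the transcription factor Nfe2l2. Rps27a, which encodes a ribosomal protein fused to ubiquitin, is also in the cytosolic ribosomal list. Nfe2l1, Pomp, Vcp, Usp14 and Uchl5 had none. Those of the second list included Ube2b, Ube2c, Ube2d3 and Ube2s. The interval of Ube2d3 was 11 bp wide, that of Ube2c 17 bp and that of Txnl1 45 bp, so these calls rest on very short intervals. H3K4me3 lay at all 29 genes of the first list and at 33 of the 34 of the second, Ube2u being without it.

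H3K4me3 at the proteasome genes is described by the widest interval within 1 kb of a TSS, the intervals having no height. The median over the 46 genes was 1495.5 bp (370 to 3015 bp), against 1360 bp (interquartile range 879 to 1981 bp) over the 12966 genes with the mark. Cytosolic ribosomal protein genes had a median of 2574.5 bp and mitochondrial ones 1444.5 bp. The proteasome genes thus lay in the middle of the range of marked genes, like the mitochondrial list. The mark was unbroken within 1 kb at 43 of the 46 genes, against 10369 of all 12966 marked genes, and Psma1, Psmb1 and Psmb9 had more than 1 interval. Where it covered the 5'-most TSS, at 38 genes, it reached a median of 426.5 bp upstream and 1010 bp downstream, against 413.5 bp and 1023 bp over all genes. It reached farther downstream than upstream at 32 of the 38 (84.2%), against 80.7% of all genes.

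By subcomplex, all 14 constitutive core genes and all 17 cap genes had H3K4me3. Alpha ring genes had a median width of 2302 bp (1008 to 2599 bp, n = 7 genes) and beta ring genes 1160 bp (994 to 2100 bp, n = 7). These ranges overlap. Of the alpha ring, Psma6 (2599 bp), Psma7 (2423 bp), Psma2 (2313 bp) and Psma3 (2302 bp) exceeded every beta ring gene, and Psma1 (1008 bp), Psma4 (1395 bp) and Psma5 (1909 bp) lay among them. Psma2, Psma4 and Psma7 in the alpha ring and Psmb1 in the beta ring have another coding gene starting within 1 kb. Genes with such a neighbour had wider intervals, as given below, and its part in these widths was not tested. The catalytic subunits Psmb5 (1030 bp), Psmb6 (994 bp) and Psmb7 (1161 bp) were all below the median of marked genes. So were the non-catalytic Psmb2 (1141 bp) and Psmb4 (1160 bp), while Psmb1 (2100 bp) and Psmb3 (1442 bp) lay above it. ATPase genes had a median of 1580.5 bp (1147 to 3015 bp) and non-ATPase genes 1682 bp (966 to 2022 bp).

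The widest interval was 3015 bp at the ATPase gene Psmc5, at the 93.6th percentile of marked genes. It was followed by Psmg2 (2922 bp), Psma6, the activator gene Psme2 (2432 bp) and Psma7. Of these 5, all but Psma6 have another coding gene starting within 1 kb: Ftsj3 at Psmc5, Cep76 at Psmg2, Rnf31 at Psme2 and Ss18l1 at Psma7. Proteasome genes with such a neighbour had a median of 2100 bp (n = 11 genes) and those without 1399 bp (n = 35). The medians over all marked genes differed in the same direction, at 1862 bp and 1246 bp. The narrowest intervals were at Psmg4 (370 bp, at the 4.83rd percentile), Psmb9 (641 bp), Psmd9 (761 bp), Psmg3 (925 bp) and the lid subunit gene Psmd6 (966 bp).

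**Figure D3:**
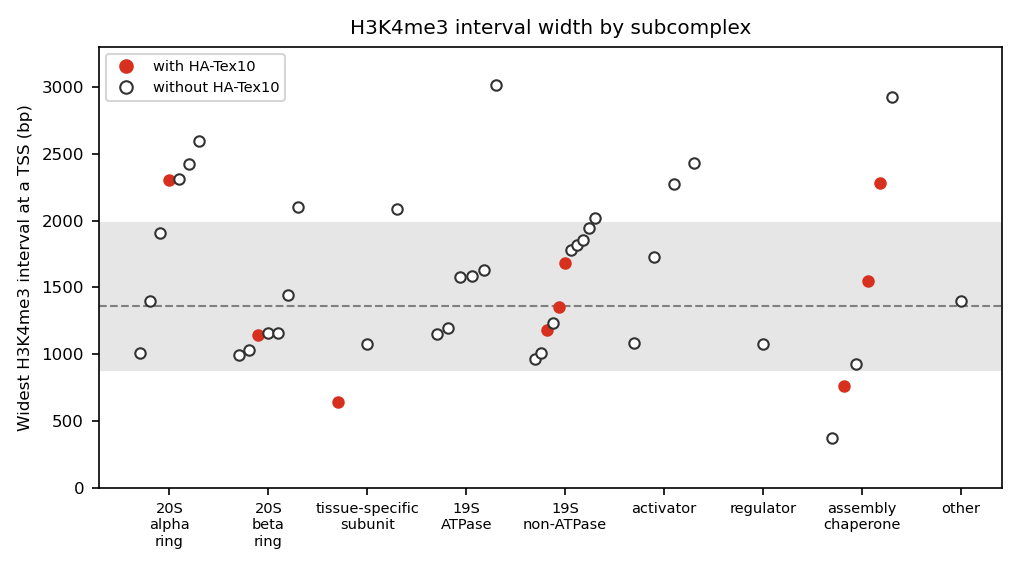
The y axis gives the width in bp of the widest H3K4me3 interval within 1 kb of a TSS, with 1 point per marked gene and filled points for genes with HA-Tex10. The dashed line and grey band give the median of 1360 bp and the interquartile range of all marked protein-coding genes. Filled points lie from 641 to 2302 bp, among the open ones.

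Over all marked genes, those with HA-Tex10 had wider H3K4me3, with medians of 1756 bp (n = 1854 genes) and 1294 bp (n = 11112). At the proteasome genes the medians were in the opposite order, a difference that was not tested. The 9 with HA-Tex10 had a median of 1352 bp (641 to 2302 bp) and the 37 without it 1576 bp (370 to 3015 bp), and the groups overlap over most of their range. At or under the width of 1360 bp, 5 of 20 proteasome genes had HA-Tex10 (25%, 11.2 to 46.9%), against 8.65% of all marked genes of those widths. Above it, 4 of 26 did (15.4%, 6.15 to 33.5%), against 19.9%.

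The tissue-specific subunits differed among themselves. Psmb8, a catalytic immunoproteasome subunit encoded beside Psmb9, had no H3K4me3 within 1 kb. Psmb9 had 2 intervals, the wider of 641 bp, and Psmb10, the third catalytic immunoproteasome subunit, had 2084 bp, which began 9 bp downstream of its TSS and reached 2092 bp into the gene. Psmb11, the subunit of the thymus form, had none within 1 kb. The interval of 1030 bp found 3435 bp from its TSS is the one at its neighbour Psmb5. Psma8, which replaces Psma7 in the testis, had 1073 bp, against 2423 bp at Psma7, where another coding gene starts within 1 kb. Among activators, Psme1 (1086 bp), Psme2, Psme3 (1728 bp) and Psme4 (2275 bp) were marked, the last being the nuclear activator needed in spermatogenesis. Psme2b, a single-exon gene in the annotation, was the remaining gene without the mark.

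Starts more than 1 kb apart were annotated for 16 of the 49 genes. H3K4me3 lay at some of these starts and not at others in 13 genes, at all of them in Psmb1 and at none in Psmb8 and Psmb11. In 11 of the 13 the mark was at the 5'-most start. The exceptions were Psma6, where it lay at the TSS 14553 bp farther downstream, and Psmf1, the proteasome regulator once described as an inhibitor, where it lay 2876 bp downstream. In these 16 genes, HA-Tex10 never lay at a start without H3K4me3. The same counts of starts were not made over all protein-coding genes, so none of them is read as a trait of the proteasome genes.

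The starts of Psma6 are shown because only the downstream start has H3K4me3 and the sequences differ in their number of CG pairs. The bases before the 5'-most start (chr12:55383972-55384221) and before the start with H3K4me3 (chr12:55398575-55398774, both plus strand, RefSeq) follow, with each CG pair in capitals.
Psma6 start without H3K4me3: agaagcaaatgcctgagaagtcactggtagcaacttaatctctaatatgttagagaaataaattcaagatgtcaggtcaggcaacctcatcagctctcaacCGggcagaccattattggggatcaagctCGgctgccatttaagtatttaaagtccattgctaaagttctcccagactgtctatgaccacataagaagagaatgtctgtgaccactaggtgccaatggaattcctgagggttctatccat
Psma6 start with H3K4me3: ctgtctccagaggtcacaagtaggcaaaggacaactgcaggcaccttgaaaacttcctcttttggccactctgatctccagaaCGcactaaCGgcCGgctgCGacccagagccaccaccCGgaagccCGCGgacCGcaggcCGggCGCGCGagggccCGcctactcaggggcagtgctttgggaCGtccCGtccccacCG
The unmarked sequence has 2 CG pairs in 250 bases and a GC content of 42.8%, and the marked one 16 in 200 bases and 65%. In the full windows of 250 bases before to 50 after the start, the counts were 3 and 22. Over the 41 promoters of marked proteasome genes the median was 19 CG pairs (3 to 41), against 21 over all promoters of marked genes. The mark was assigned here by gene, so the 41 include the Psma6 start without H3K4me3. Psme2b had 2, Psmb11 4 and Psmb8 11. Psmb10 also had 3 and was marked, so a low count did not always go with a missing mark.

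Such windows were available for 41 of the 49 genes, with 44 promoters in all. Psma8, Psmb1, Psmb2, Psmb7, Psmc3, Psmd3, Psmd7 and Psmg2 were not read. GC content did not set the genes with HA-Tex10 apart from the other proteasome genes, with medians of 57.8% (6 promoters) and 58.2% (38 promoters). The median was 57% over all 20085 promoters and 61.7% over those of marked genes, against 59% for marked proteasome genes. Motif letters were searched on both strands. The ETS site CCGGAAGT, read by a factor family common at housekeeping promoters, was found in 10 of 41 promoters of marked proteasome genes (24.4%), against 7.67% of 12844 promoters of all marked genes. The site of nuclear respiratory factor 1, which despite its abbreviation NRF1 is unrelated to Nfe2l1, was found in 7 (17.1%, against 9.58%). The antioxidant response element was found in 24 (58.5%, against 42.3%), an element of so few fixed letters that it is frequent everywhere. The SP box was found in 23 (56.1%, against 64.4%), CCAAT in 13 (31.7%, against 37.3%), CACGTG in 4 (9.76%, against 9.86%), AAGATGGCG (the site of YY1) in 2 (4.88%, against 2.75%) and TGACGTCA (the site of CREB) in 0 (against 3.01%). A match is a match of letters only and does not show that a factor was bound.

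**Figure D4:**
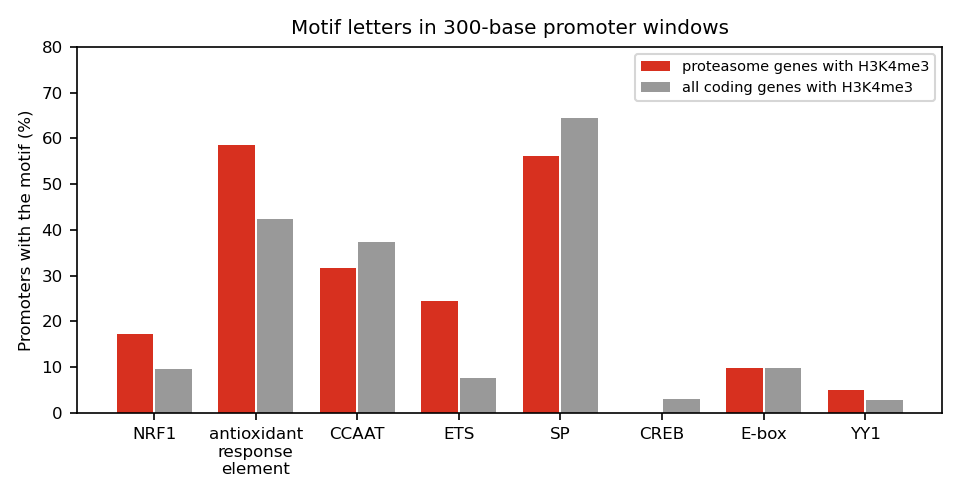
Bars give the percent of promoters, from 250 bases before to 50 after the RefSeq start, that hold each motif on either strand. Red bars are 41 promoters of proteasome genes with H3K4me3 and grey bars 12844 promoters of all protein-coding genes with H3K4me3. The ETS bars stand at 24.4% and 7.67%.

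The ETS matches are shown because most lie close to the start. Each line gives the match in capitals with its flanks, in the direction of transcription, and Psmc2 has a line for each of its promoters.
Psma6: tagccataACTTCCGGgagggggc
Psmc1: gtggatgcACTTCCGGcggtggcg
Psmc2: cagtgagcACTTCCGGgatggggc
Psmc2: gcggagctACTTCCGGtggggaag
Psmd6: agacgcgaCCGGAAGTcagactgg
Psmd12: agcgggcgACTTCCGGtgcgagtg
Psmd13: ccgcggtgCCGGAAGTgagcgagc
Psme3: gtgacgcaACTTCCGGcgtgagcg
Psme4: gccccgccCCGGAAGTgacttgag
Psmg3: gacaggaaCCGGAAGTtctcgccg
Of these 10 matches, 9 began within 60 bases of the start, against 66.9% of the 1364 ETS matches in all promoter windows of chromosomes 1 to 19. The farthest upstream lay 85 bases before the start of Psmc2. None of the 9 genes with an ETS match had HA-Tex10, and 0 of the 6 promoters of genes with HA-Tex10 held one, numbers too small for a comparison. The antioxidant response element was found in 5 of these 6 promoters and in 21 of the 38 of genes without HA-Tex10, and the NRF1 site in 2 of 6 and 5 of 38. For the SP box the counts were 4 of 6 and 19 of 38, for CCAAT 2 of 6 and 12 of 38. CACGTG had 1 of 6 and 3 of 38, and AAGATGGCG 0 of 6 and 2 of 38. These numbers too are too small for a comparison, and no share over all promoters with HA-Tex10 was read.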

How the data were processed

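ChIP-seq intervals of mouse PGCLCs were used as the authors deposited them. Each of the 3 lists gives the start and end of its intervals in bp, and its score and strand columns hold no values. Bowtie2 2.3.4.3, SAMtools 1.9, MACS2 2.1.2, HOMER and the build mm10 are named in the submitters' processing notes. The peak threshold, whether input was used and how replicates were combined are not given in the sources used here. The sequencing depth is unknown. On GRCm38, 0 intervals ended past a chromosome end.

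Distances, counts and Wilson 95% intervals were computed with Python 3.11.15, NumPy 2.4.6 and SciPy 1.17.1, with genes from GENCODE M21 and promoter sequences from RefSeq GRCm38.p6. For a count of 0, 3 counts of the total gave the upper limit. Repeats were scored as the share of 32-base words present elsewhere in the chromosome sequences, with mostly repeated meaning over 50%. The window rule was tested on simulated data. The third list, the HA-Tex10 intervals that meet H3K4me3, served only as an alternative. The members, lists and motifs were chosen with earlier results of these data known. Genes were named if they had HA-Tex10, lacked H3K4me3, or had one of the 5 widest or narrowest H3K4me3 intervals or one of the 3 smallest distances to HA-Tex10 among genes without it, and pathway genes if they had HA-Tex10, except for a gene that is not reported here. Other genes were named for contrast after their values were seen. Alternatives changed the window, the TSS, the intervals or the genes used.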

Additional observations from a re-analysis of the deposited data

How the results depend on the processing

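No paired analysis was possible because the 2 samples of an antibody share 1 list, which also leaves no replicate to drop. The share of proteasome genes with HA-Tex10 ranged from 14.3% to 21.1% over 15 alternatives, the share with H3K4me3 from 89.8% to 95.9% over 12 and the median H3K4me3 width from 1399 to 1562.5 bp over 5. Leaving out Psmc3ip, chosen after seeing the data, gave 9 of 48 genes (18.8%). With HA-Tex10 intervals wider than their median, Psma3 and Psmd9 were lost and 7 of 49 genes remained, against 4.86% of all genes. For that setting no share among genes with H3K4me3 was computed, the comparison in which the main share was near the background. The H3K4me3 share fell to 89.8% with the 5'-most TSS, where Psma6 and Psmf1 have no mark. Depth and threshold being unknown, a missing interval does not show that Tex10 was absent.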

Other observations

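Psmd10, which encodes a cap assembly chaperone, lies on the X chromosome and so falls outside the rule. It had 1 H3K4me3 interval of 396 bp at its 2 TSS and no HA-Tex10. On chromosome 8, where 41.2% of the 741 genes with H3K4me3 had HA-Tex10, there were 2 proteasome genes, Psmd7 with HA-Tex10 and Psmb10 without. Without that chromosome, 8 of 47 proteasome genes had HA-Tex10 (17%), against 8.03% of all genes, and among genes with H3K4me3 the shares were 18.2% and 12.7%.

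Genes with several annotated starts have more places at which an interval can be counted. HA-Tex10 lay at 2 of 17 proteasome genes with a single TSS (11.8%) and at 7 of 32 with more (21.9%), against 7.17% and 10.3% of all protein-coding genes of each kind. Among genes with H3K4me3 the order differed for a single TSS, with 2 of 16 proteasome genes (12.5%) against 13.7% of all, and stayed for more, with 7 of 30 (23.3%) against 14.6%.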
